A study of Mus musculus with 48 samples.

Results

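Macrophages that lack the kinase Lyn (LynKO) were compared with wild-type (WT) macrophages after 2 h with the TLR7 ligand R848. The comparison used 8 of the study's 48 libraries, the 4 LynKO and the 4 WT libraries labelled as treated with R848, and ran over all expressed genes. The study measured polyadenylated RNA in bone marrow-derived macrophages of 4 genotypes: WT, LynAKO and LynBKO, each named for the Lyn isoform that is missing, and LynKO, the total knockout. Marrow of 4 mice per genotype, 2 male and 2 female, was differentiated separately for 7 days in medium with M-CSF, the growth factor of the macrophage lineage. All cells, the controls included, were then rested overnight without M-CSF and kept for 2 h in that medium alone (no ligand), with 2 ng/mL LPS or with 20 ng/mL R848. The labels used here give no strain, age or construction of the knockout alleles. Libraries are named by genotype and mouse number, from WT 1 to LynKO 4. With R848 and with LPS, by the labels, numbers 1 and 2 are male and 3 and 4 are female; without ligand the labels differ for LynBKO, where number 2 is female and number 3 male. By its title, the study asked how Lyn bears on TLR activation and on proliferation and whether its isoforms differ in this.

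Lyn is a Src-family tyrosine kinase of myeloid and B cells. It phosphorylates the activating motifs of Fc receptors and lectin adaptors and also the inhibitory motifs of receptors such as Sirpa and Cd22, which recruit phosphatases, so it can raise or limit signalling. R848 (resiquimod) enters endosomes and binds TLR7, which signals through Myd88 and the Irak kinases to NF-kB and the MAP kinases and turns on cytokine genes within hours. M-CSF drives macrophages through the cell cycle. E2F factors switch on DNA replication genes in late G1, and a later complex with Foxm1 switches on the genes of mitosis.

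The 16 libraries with R848 held 14974764 to 19986385 counts each. Levels are given as CPM, counts relative to library size, scaled by the trimmed mean of M-values (TMM), and per-library values follow the mouse numbers 1 to 4. Of 49315 genes, 13986 had enough counts to be tested. A gene is said to have risen or fallen in LynKO where edgeR's quasi-likelihood test over the 16 R848 libraries gave a Benjamini-Hochberg adjusted p under 0.05. Fold changes are log2 values, LynKO minus WT, followed by ± the standard error, and CPM means are followed by ± the SD over 4 mice. The labelled cell type was checked on 12 macrophage markers: their summed CPM was 36273 to 38885 in WT and 26320 to 30870 in LynKO, and of these Lyz2 fell. Markers of T and NK cells summed to at most 1.47 CPM and those of erythroid cells to at most 0.694 CPM. Among 15 neutrophil and granulocyte progenitor markers, Elane, Mpo, Prtn3, Ctsg, Ly6g, Retnlg and Cxcr2 averaged at most 3 counts a library over the 8 libraries. The list's sum was 200.1 to 228.9 CPM in WT and 147.0 to 181.4 CPM in LynKO, and Mmp8 and Csf3r fell; the part of these cells in the results below was not tested. In bulk RNA, fewer cells of a type and less RNA per cell cannot be told apart. The first principal component of these 16 libraries (27.3% of the variance) placed the libraries numbered 4 at one end, and the second (22.8%) separated LynKO from WT. The first component also split the labelled sexes without overlap. Male libraries lay at -0.283 to -0.117 and female libraries at -0.011 to 0.560.

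Lyn itself (chromosome 4, 3678115 to 3813122, plus strand, GRCm38) fell in every LynKO library. Its level was 353, 341, 393 and 397 CPM in WT and 98.9, 119, 96.1 and 101 CPM in LynKO. The groups did not overlap, and the difference was -1.84 ± 0.09, adjusted p = 2.39e-10. The LynKO libraries thus kept about 100 CPM of reads counted to Lyn, and the labels used here do not say which exons the allele lacks. Of the other Src-family kinases that could be tested, none was called. Fgr stood at 32.00, 32.7, 41.9 and 43.00 CPM in WT and 31.6, 40.1, 39.96 and 44.1 CPM in LynKO, with overlapping groups (0.06 ± 0.13, adjusted p = 0.852), and its sign depended on single libraries. Of 12 regulators of these kinases, Pag1, an adaptor that anchors the inhibitory kinase Csk at the membrane, fell (-0.81 ± 0.18, adjusted p = 0.0127). Ptpn22, a phosphatase that acts on Src-family kinases, rose (0.55 ± 0.15, adjusted p = 0.031), a call lost in 6 of 16 single omissions (adjusted p up to 0.0902, without WT 4). With the mouse number as a block, the 18 kinases and regulators tested gave 2 rises and 4 falls in place of 1 and 2. The share called was 16.7%, against 5.93% of all genes, and 33.3% against 12.5% with the block. Lyn, Tlr7, the cytokine and the highest-ranked genes are plotted for all 4 genotypes in the chart of levels per library.

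**Figure D1:**
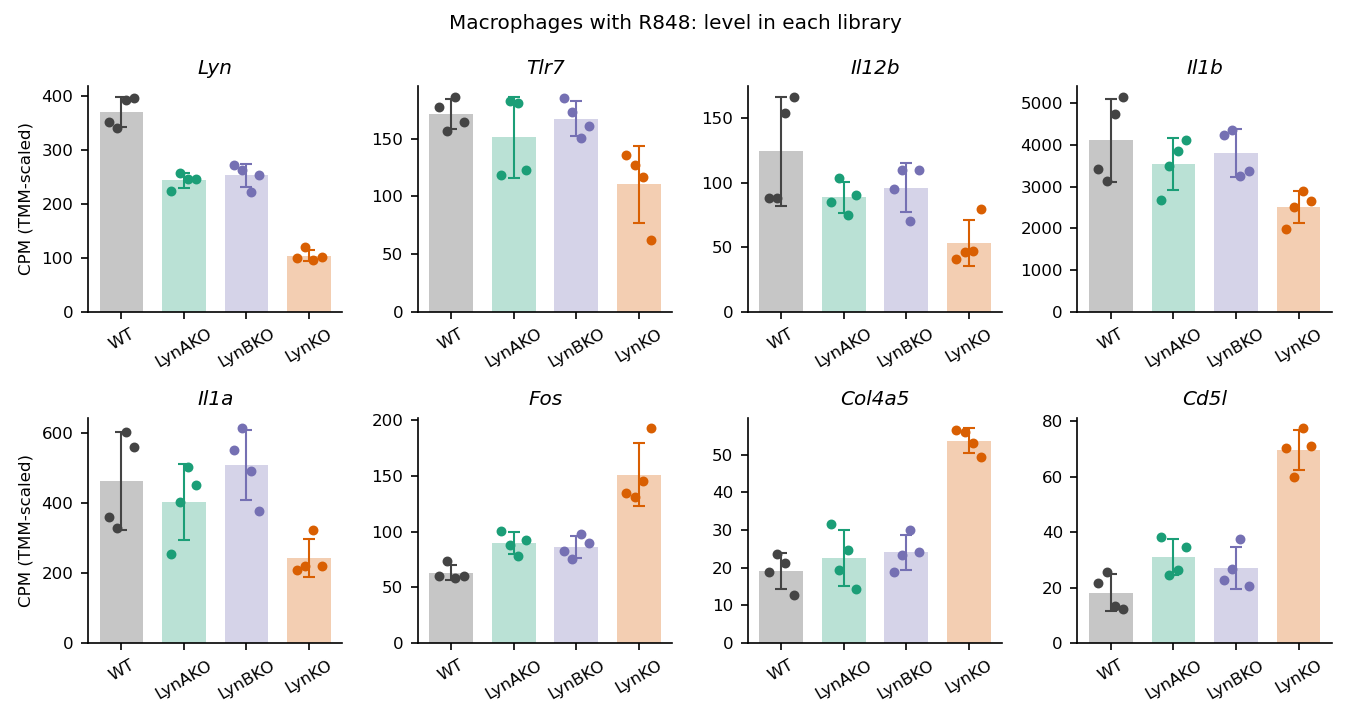
Level of 8 genes in CPM (TMM-scaled, linear axes from 0) in the 16 libraries with R848, by genotype; bars are means, error bars SD and points single mice (n = 4). The LynKO points of Lyn, Il12b, Il1b, Il1a, Fos, Col4a5, Cd5l and Tlr7 do not overlap the WT points.

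Across the transcriptome, 446 genes rose and 383 fell in LynKO with R848, together 829 or 5.93% of the 13986 genes tested (3.19% higher, 2.74% lower). The rises were larger than the falls: 170 of the genes that rose did so by more than 2-fold, against 33 of those that fell, and 31 against 3 passed 4-fold. The median change was 0.83 among genes that rose and -0.44 among those that fell, with a median of 0.01 over all genes tested. In 747 of the 829 the CPM of the 4 WT and the 4 LynKO libraries did not overlap, a separation that 12.2% of all genes tested showed (6.49% with LynKO higher, 5.72% with LynKO lower). With the mouse number as a block, 1753 genes were called (802 higher, 5.73%, and 951 lower, 6.8%), the 829 among them in the same direction. The block thus called 12.5% of all genes, and counts of list members given with it stand against these larger shares. Leaving out 1 library at a time gave 464 to 873 calls, with the count falling by over 1.5 times without WT 4 (464), WT 3 (483), LynKO 1 (522) or LynKO 4 (542), and 317 genes were called in all 16 of these fits. Without the 4 R848 libraries numbered 4, 513 genes were called (280 higher, 233 lower).

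**Figure D2:**
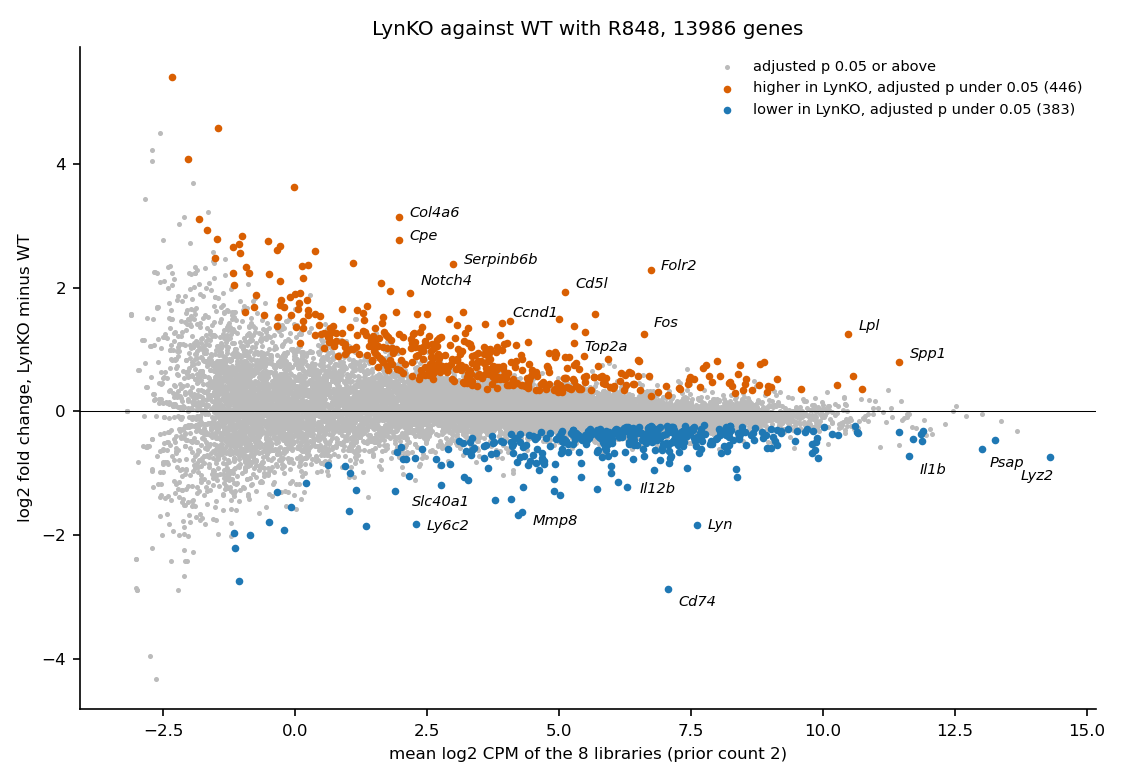
Each point is 1 of 13986 genes: mean log2 CPM of the 8 libraries (x) against the log2 fold change of LynKO minus WT with R848 (y). The 446 genes that rose (orange) reach larger changes than the 383 that fell (blue), apart from Cd74.

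Among genes called without overlap of the groups and with a mean of at least 5 CPM, Col4a6, Cpe, Serpinb6b and Folr2 rose most. Col4a6, a chain of the basement membrane collagen IV, was at 0.979, 2.15, 1.70 and 0.506 CPM in WT and 11.4, 12.2, 10.9 and 13.2 CPM in LynKO (3.14 ± 0.36, adjusted p = 5.87e-05). Its neighbour Col4a5, which encodes the chain it assembles with, was at 18.8, 23.7, 21.3 and 12.7 CPM in WT and 56.5, 55.9, 53.1 and 49.4 CPM in LynKO (1.49 ± 0.20, adjusted p = 0.000371). No WT library came near the LynKO range for either gene. Cpe, carboxypeptidase E, which trims peptide hormones, rose from 1.46 ± 0.304 to 10.1 ± 2.02 CPM (2.77 ± 0.24, adjusted p = 4.09e-06). Serpinb6b, an intracellular protease inhibitor of a multigene family whose reads can be shared between copies, rose by 2.39 ± 0.26 (adjusted p = 3.93e-05). Folr2, a folate receptor of tissue-resident macrophages, was at 47.8, 86.1, 45.3 and 26.6 CPM in WT and 238, 185, 181 and 408 CPM in LynKO, with the highest value in LynKO 4 (2.29 ± 0.32, adjusted p = 0.000405). Cd5l, a secreted scavenger protein of resident macrophages, was at 21.5, 25.8, 13.2 and 12.2 CPM in WT and 70.4, 59.8, 77.5 and 70.95 CPM in LynKO (1.93 ± 0.22, adjusted p = 5.87e-05). Notch4, a Notch receptor, rose by 1.92 ± 0.22 (adjusted p = 6.75e-05), and Tmem26, a membrane protein, by 1.49 ± 0.25 (adjusted p = 0.00231). The other 4 of the 12 highest-ranked genes were Pclaf, Rrm2 and Uhrf1, described below with the replication genes, and H2-Q6.

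Apart from Lyn and Cd74, the genes of the same kind that fell most were Ly6c2, Clec4n and Mmp8. Ly6c2, the surface antigen of inflammatory monocytes, was at 9.18, 4.85, 10.1 and 13.1 CPM in WT and 2.84, 2.99, 2.91 and 1.75 CPM in LynKO (-1.82 ± 0.29, adjusted p = 0.0014). The 7 monocyte markers as a list summed to 178.6 to 258.4 CPM in WT and 147.4 to 246.2 CPM in LynKO, and Ly6c2 was the 1 member called. Mmp8, the neutrophil collagenase, was at 34.5, 25.1, 47.7 and 32.95 CPM in WT and 12.6, 13.01, 9.09 and 10.4 CPM in LynKO (-1.63 ± 0.20, adjusted p = 9.94e-05). Clec4n, which encodes the fungal receptor Dectin-2, was at 34.2, 28.9, 27.7 and 43.6 CPM in WT and 10.8, 10.02, 12.5 and 8.75 CPM in LynKO (-1.68 ± 0.18, adjusted p = 3.93e-05). In these 3 genes the highest LynKO library lay below the lowest WT library. Slc40a1, ferroportin, the iron exporter of cells, fell from 22.7 ± 1.96 to 8.45 ± 1.58 CPM (-1.43 ± 0.14, adjusted p = 1.12e-05). F10, coagulation factor X, fell by 1.34 ± 0.24 (adjusted p = 0.00344) and Fpr1, the receptor for formylated bacterial peptides, by 1.28 ± 0.23 (adjusted p = 0.00291). Ms4a4a, a membrane gene of a family of close copies, fell by 1.26 ± 0.16 (adjusted p = 0.000193). Atrnl1 was at 26.4, 27.6, 35.3 and 27.8 CPM in WT and 12.1, 12.4, 15.4 and 4.06 CPM in LynKO (-1.41 ± 0.29, adjusted p = 0.00682), lowest in LynKO 4. Adgre4, an adhesion receptor of the F4/80 family, fell by 1.22 ± 0.30 (adjusted p = 0.0237), a call lost without LynKO 1 (0.0571), LynKO 4 (0.0651), WT 3 (0.0921) or WT 4 (0.0583).

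Of the 31 gene lists, the G2/M and G1/S cell cycle lists held the most genes that rose, though 364 of the 446 genes that rose stand outside them. The promoters of 4 of their genes are shown first because the classes of gene differ in how often they hold certain short motifs there. Each is 250 bases before to 50 after the start of transcription, 5′ to 3′ on the gene's strand, from RefSeq (GRCm38.p6). Capitals in Top2a (chr11:99024140-99024439, minus strand) and Cdk1 (chr10:69352863-69353162, minus strand) mark the CHR motif TTTGAA, the element of mitotic genes, and the CCAAT box CCAAT, on either strand. Capitals in Mcm5 (chr8:75109259-75109558, plus strand) and Mcm6 (chr1:128359656-128359955, minus strand) mark the E2F motif TTTNNCGC on either strand, whose matches can overlap each other. Matches to the motifs of the other class are left in lower case. Cdk1 also holds E2F matches (TTTCGCGC and TTTACCGC), and Mcm5 and Mcm6 also hold CCAAT boxes.
Top2a: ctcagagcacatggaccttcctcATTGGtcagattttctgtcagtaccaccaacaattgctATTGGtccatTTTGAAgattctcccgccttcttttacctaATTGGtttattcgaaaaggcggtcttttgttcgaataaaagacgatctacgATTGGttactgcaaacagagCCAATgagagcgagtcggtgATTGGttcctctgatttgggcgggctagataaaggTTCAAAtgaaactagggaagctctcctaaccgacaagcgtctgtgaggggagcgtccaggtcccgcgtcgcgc
Cdk1: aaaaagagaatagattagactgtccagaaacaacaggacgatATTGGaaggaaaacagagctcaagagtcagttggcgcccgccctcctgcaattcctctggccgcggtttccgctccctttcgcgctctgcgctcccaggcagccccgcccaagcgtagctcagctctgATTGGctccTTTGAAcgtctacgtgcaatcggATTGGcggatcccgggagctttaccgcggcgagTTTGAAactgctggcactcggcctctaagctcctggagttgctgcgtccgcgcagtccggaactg
Mcm5: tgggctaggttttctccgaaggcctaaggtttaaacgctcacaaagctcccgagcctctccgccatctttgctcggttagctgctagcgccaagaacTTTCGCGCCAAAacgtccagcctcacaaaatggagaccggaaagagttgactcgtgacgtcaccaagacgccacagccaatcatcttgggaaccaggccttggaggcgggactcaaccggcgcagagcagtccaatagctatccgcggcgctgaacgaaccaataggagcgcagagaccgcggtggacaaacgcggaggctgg
Mcm6: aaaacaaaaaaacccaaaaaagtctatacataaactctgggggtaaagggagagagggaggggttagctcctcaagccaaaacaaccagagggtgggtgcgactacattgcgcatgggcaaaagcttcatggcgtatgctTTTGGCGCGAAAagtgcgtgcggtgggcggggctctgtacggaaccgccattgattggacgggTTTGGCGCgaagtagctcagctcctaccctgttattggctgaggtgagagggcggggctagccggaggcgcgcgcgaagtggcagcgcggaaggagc
Windows were found for 10020 of the genes tested. The CHR motif was in 14.4% of these, and in 48 of 76 windows of the G2/M list (63.2%) and 10 of 51 of the G1/S list (19.6%). The E2F motif was in 9.72% of all, in 23 of 51 windows of the G1/S list (45.1%) and 14 of 76 of the G2/M list (18.4%). The CCAAT box was in 42.9% of all, 69.7% of the G2/M and 60.8% of the G1/S windows. Among genes that rose but stand in neither list, 17.1% of 280 windows held the CHR motif and 11.8% the E2F motif. A match is a run of letters and was not tested as a binding site.

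Genes of G2 and mitosis rose in LynKO with R848. Of 94 tested, 56 rose and 1 fell (Hmgb2), and the list's median was 0.86 against 0.01 for all genes. Over the 4 LynKO libraries the median of the list above the WT mean was 1.07, 1.01, 0.82 and 0.45 (log2 CPM), while the WT libraries stood between -0.04 and 0.09. LynKO 4, the library at the end of the first component, thus had the smallest rise. The count of calls was 38 to 62 when single libraries were left out. Top2a, topoisomerase II, which untangles chromosomes, was at 27.4, 28.6, 28.97 and 22.2 CPM in WT and 68.02, 63.5, 56.98 and 42.9 CPM in LynKO (1.11 ± 0.16, adjusted p = 0.000556). Ccna2, the cyclin of S phase and early mitosis, was at 11.6, 10.3, 8.29 and 9.32 CPM in WT and 21.1, 23.2, 20.3 and 16.9 CPM in LynKO (1.04 ± 0.16, adjusted p = 0.0014). Both genes were higher in each LynKO library than in any WT library.

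Kifc1, a spindle motor, rose from 4.23 ± 0.565 to 9.50 ± 1.52 CPM (1.16 ± 0.16, adjusted p = 0.000371), and Stmn1, which depolymerises microtubules, from 22.3 ± 2.73 to 40.9 ± 3.87 CPM (0.88 ± 0.13, adjusted p = 0.000776). Cdk1, the mitotic kinase, Aurkb, the kinase of the chromosome passenger complex, and Foxm1, a transcription factor of mitotic genes, were added to the names after their values were seen. Their changes were 0.82 ± 0.13, 1.06 ± 0.17 and 1.03 ± 0.20, with adjusted p of 0.00159, 0.00151 and 0.0045. Ccnb1, cyclin B1, was at 12.4, 8.22, 14.2 and 13.4 CPM in WT and 25.4, 20.4, 20.97 and 13.4 CPM in LynKO. LynKO 4 lay inside the WT range for this gene, and its call (0.73 ± 0.20, adjusted p = 0.0394) was lost in 7 of 16 single omissions (adjusted p up to 0.122, without LynKO 1). Mki67, the proliferation marker Ki-67, did not share the rise of the list: it was at 273, 274, 307 and 182 CPM in WT and 256, 255, 231 and 116 CPM in LynKO, with overlapping groups (-0.27 ± 0.24, adjusted p = 0.577). With the mouse block the difference of Mki67 passed the test in the lower direction (adjusted p = 0.029). Hmgb2, a chromatin protein placed in the list, fell by 0.40 ± 0.10 (adjusted p = 0.0286), a call lost in 5 of 16 single omissions (adjusted p up to 0.094, without WT 4).

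Genes of G1/S and DNA replication rose as well, with fewer calls. Of 64 tested, 26 rose and none fell, with a median of 0.63. Of these, 7 of 18 encode licensing and helicase proteins, 17 of 39 act in DNA synthesis, and 2 of 7 are E2F factors or E cyclins. The list's median in the LynKO libraries was 0.73, 0.55, 0.38 and 0.76 above the WT mean, and the WT libraries spanned -0.16 to 0.19. The count fell to 13 without WT 3, 14 without WT 4, 15 without LynKO 1 and 17 without LynKO 4, and to 11 without all libraries numbered 4. Mcm5, a subunit of the replicative helicase, was at 10.7, 14.1, 9.35 and 8.60 CPM in WT and 22.3, 21.01, 19.4 and 28.9 CPM in LynKO (1.09 ± 0.19, adjusted p = 0.00283). Mcm6, its partner in the helicase, was at 30.4, 42.7, 27.8 and 29.5 CPM in WT and 56.3, 55.03, 56.05 and 76.1 CPM in LynKO (0.90 ± 0.19, adjusted p = 0.0081) and was named after its values were seen. Tk1, thymidine kinase, was at 13.4, 16.2, 12.7 and 14.6 CPM in WT and 25.9, 23.2, 27.03 and 30.8 CPM in LynKO (0.91 ± 0.11, adjusted p = 0.000158), and no WT library reached the lowest LynKO library of these genes.

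The subunits of ribonucleotide reductase, which makes deoxynucleotides, both rose, Rrm1 by 0.74 ± 0.13 (adjusted p = 0.00253) and Rrm2 by 1.58 ± 0.32 (adjusted p = 0.00649). Rrm2 was at 3.73, 4.97, 2.55 and 1.95 CPM in WT and 11.4, 8.91, 8.85 and 10.8 CPM in LynKO. Uhrf1, which keeps DNA methylation through replication, rose from 2.92 ± 1.40 to 8.84 ± 1.71 CPM (1.58 ± 0.29, adjusted p = 0.00386). Pclaf, a PCNA-binding protein that stands in neither cell cycle list, was at 5.14, 6.81, 3.33 and 5.42 CPM in WT and 19.4, 12.9, 15.4 and 15.9 CPM in LynKO (1.61 ± 0.25, adjusted p = 0.0014).

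Upstream of replication, 28 D cyclins, CDK inhibitors, Myc and RB family genes gave 2 rises and 2 falls. The share called was 14.3%, against 5.93% of all genes. Ccnd1, cyclin D1, the G1 cyclin that M-CSF induces, was at 9.24, 16.6, 6.45 and 6.07 CPM in WT and 30.5, 21.7, 22.3 and 29.8 CPM in LynKO (1.43 ± 0.28, adjusted p = 0.00593). WT 2 was the highest of the controls and still lay below every LynKO library. The CDK4 inhibitor gene Cdkn2c, itself a target of E2F, rose by 0.56 ± 0.13 (adjusted p = 0.0148). Cdkn1a, the inhibitor p21, fell by 0.34 ± 0.09 (adjusted p = 0.0253), and Btg2, an antiproliferative gene, by 0.46 ± 0.11 (adjusted p = 0.0186). The call of Cdkn1a was lost in 5 of 16 single omissions (adjusted p up to 0.0836, without WT 4), and that of Btg2 was lost without LynKO 4 (0.0533), WT 3 (0.0535) or WT 4 (0.065). The list had 6 rises and 4 falls with the mouse block (35.7% called, against 12.5% of all genes).

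Ribosome biogenesis genes, which supply growing cells, had a median of 0.28. Of 40, 5 rose (12.5%, against 3.19% of all genes) and none fell. With the block 17 rose (42.5%, against 5.73% of all genes). Nop56, a core protein of the nucleolar methylation complex, was at 37.3, 45.7, 55.2 and 46.97 CPM in WT and 59.4, 59.97, 68.2 and 88.1 CPM in LynKO (0.57 ± 0.13, adjusted p = 0.014). Wdr12 rose by 0.53 ± 0.12 (adjusted p = 0.0131), Rrp12 by 0.42 ± 0.10 (0.0157) and Dkc1, dyskerin, by 0.71 ± 0.18 (0.0229). The call of Rrp12 was lost without LynKO 3 (0.0539) and that of Dkc1 was lost without LynKO 4 (0.077) or WT 1 (0.0674). The list's count was 3 without LynKO 3 or WT 1, 8 without LynKO 2 and 9 without WT 3. Odc1, which starts polyamine synthesis, was at 336, 411, 348 and 336 CPM in WT and 583, 661, 527 and 711 CPM in LynKO (0.79 ± 0.12, adjusted p = 0.000711).

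**Figure D3:**
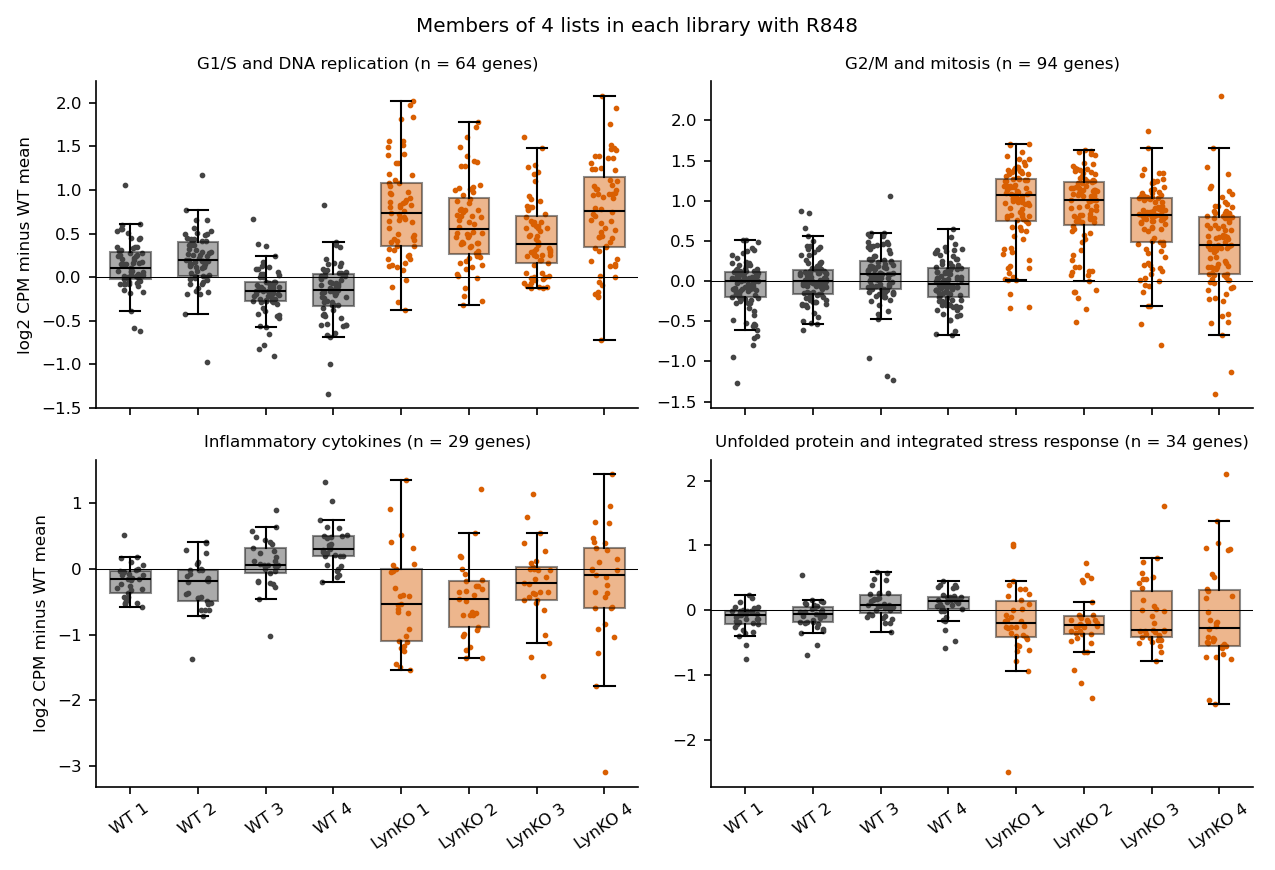
Members of 4 gene lists in the 8 libraries with R848: log2 CPM minus the mean of the WT libraries (y) per library (x); points are genes, boxes the quartiles and median over the genes. The G2/M medians of LynKO 1 to 4 lie between 0.45 and 1.07, the cytokine medians between -0.53 and -0.09 and those of the unfolded protein list between -0.31 and -0.20.

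Genes of TLR signalling, a list that holds the pathway of R848 together with other TLRs, fell where they were called. Of 30 genes of TLR7 and TLR signalling, 5 fell (16.7%, against 2.74% of all genes) and none rose, with a median of -0.17, and with the mouse block 11 fell. Tlr7 was at 178, 157, 187 and 165 CPM in WT and 136, 127, 117 and 62.3 CPM in LynKO. LynKO 4 was lowest, the groups did not overlap, and the difference was -0.64 ± 0.18, adjusted p = 0.047, a call lost in 10 of 16 single omissions (adjusted p up to 0.113, without WT 3). Hsp90b1, the chaperone gp96 that folds TLRs, is described with the chaperones. Irak3, an inhibitory Irak kinase, fell by 0.48 ± 0.11 (adjusted p = 0.0157) and Irak2 by 0.32 ± 0.09 (0.0348). Tlr2, which is not the receptor of R848, fell by 0.24 ± 0.07 (0.0496). These calls rested on single libraries: that of Irak3 was lost without LynKO 1 (0.052), WT 3 (0.0576) or WT 4 (0.052), that of Irak2 was lost in 7 of 16 single omissions (adjusted p up to 0.113, without WT 4) and that of Tlr2 was lost in 14 of 16 single omissions (adjusted p up to 0.128, without LynKO 4). The list's count was 1 without WT 3 or WT 4, 2 without LynKO 1, LynKO 3, LynKO 4 or WT 1, and 3 without WT 2 or any of 3 LynBKO libraries. Myd88, the adaptor of the pathway, was at 178, 207, 221 and 235 CPM in WT and 195, 189.6, 199 and 214 CPM in LynKO, without a call (-0.08 ± 0.08, adjusted p = 0.647).

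Of 25 NF-kB subunits, inhibitors and partners of A20, 2 fell and none rose (5 falls with the mouse block). The 2 calls were 8.0% of the list, near the 5.93% of all genes called. Tnfaip2, an NF-kB target, was at 4029.9, 3859.8, 4576 and 4380.3 CPM in WT and 3055, 3137, 3597 and 3253 CPM in LynKO (-0.37 ± 0.07, adjusted p = 0.00611). Rel, the subunit c-Rel, was at 246, 215, 330.1 and 337 CPM in WT and 188, 194, 239.7 and 184 CPM in LynKO, with 1 LynKO library inside the WT range (-0.48 ± 0.13, adjusted p = 0.0347), and its call was lost in 5 of 16 single omissions (adjusted p up to 0.113, without WT 4). Nfkbia, the inhibitor that NF-kB induces at once, was at 1473, 1456, 1541 and 1744 CPM in WT and 1259, 1325, 1342 and 1708 CPM in LynKO and was not called (-0.14 ± 0.09, adjusted p = 0.397).

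More cytokine genes fell than rose in LynKO. Of 29 tested, 6 fell and 1 rose, with a median of -0.27 (2 rises and 11 falls with the mouse block). The share called was 24.1%, against 5.93% of all genes. The list's median in LynKO 1 to 4 was -0.53, -0.46, -0.22 and -0.09 relative to the WT mean, inside the WT span of -0.19 to 0.29 for LynKO 4. Il12b, the shared subunit of IL-12 and IL-23, was at 88.2, 88.02, 154 and 167 CPM in WT and 40.98, 46.2, 46.7 and 79.7 CPM in LynKO. Each LynKO library was below each WT library, and LynKO 4 was the highest of its group (-1.22 ± 0.22, adjusted p = 0.00359). Il1b was at 3420.1, 3126, 4742 and 5157 CPM in WT and 1979, 2518, 2886 and 2655 CPM in LynKO (-0.71 ± 0.16, adjusted p = 0.0141), and Il1a at 361, 328, 603 and 561 CPM in WT and 208, 220.2, 323 and 219 CPM in LynKO (-0.93 ± 0.22, adjusted p = 0.0163). Both IL-1 genes had no overlap between the groups. The call of Il1b was lost without LynKO 1 (0.0515) or WT 4 (0.0543), and that of Il1a was lost without LynKO 1 (0.0525), WT 3 (0.0613) or WT 4 (0.0552).

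Gdf15, a stress cytokine of the TGF-beta superfamily, was at 15.7, 12.7, 11.5 and 16.6 CPM in WT and 6.02, 5.40, 6.93 and 7.75 CPM in LynKO (-1.11 ± 0.20, adjusted p = 0.00334), and Tnfsf9, the ligand 4-1BBL, was at 147, 132, 157 and 176 CPM in WT and 95.8, 93.5, 98.2 and 119 CPM in LynKO (-0.59 ± 0.10, adjusted p = 0.00249). Il23a, the other subunit of IL-23, named after its values were seen, fell from 1.47 ± 0.651 to 0.493 ± 0.0876 CPM (-1.55 ± 0.44, adjusted p = 0.0437), a call lost in 9 of 16 single omissions (adjusted p up to 0.143, without WT 4). The 1 riser was Tnfsf13b, the B cell factor BAFF, from 0.772 ± 0.198 to 1.83 ± 0.216 CPM (1.23 ± 0.31, adjusted p = 0.0249), a call lost without LynKO 1 (0.0642), WT 1 (0.0694), WT 3 (0.0714) or WT 4 (0.0579). The count of the list was 3 without LynKO 1 or WT 4, 4 without WT 3 and 3 without all libraries numbered 4.

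Tnf and Il6 had lower means in LynKO without a call. Tnf was at 2314, 1812, 2953 and 3680.0 CPM in WT and 1646, 1359, 2002 and 2186 CPM in LynKO, and LynKO 3 and 4 lay inside the WT range (-0.58 ± 0.20, adjusted p = 0.0929). Il6 was at 15.9, 15.4, 35.6 and 36.4 CPM in WT and 8.34, 10.4, 16.5 and 18.3 CPM in LynKO (-0.94 ± 0.34, adjusted p = 0.107). In both genotypes mice 3 and 4, labelled female, were above mice 1 and 2, labelled male, for Il6. With the mouse block both differences passed the test (adjusted p = 0.00504 for Tnf and 0.0333 for Il6). Il10, the anti-inflammatory cytokine, was at 35.7, 62.9, 61.9 and 50.2 CPM in WT and 68.3, 75.3, 67.3 and 139 CPM in LynKO, each LynKO library above each WT library and LynKO 4 the highest. It was not called (0.73 ± 0.23, adjusted p = 0.0638), but was with the mouse block (adjusted p = 0.0338).

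Immediate-early genes moved in both directions. Of 33 AP-1, EGR, NR4A and feedback genes, 4 rose and 2 fell (18.2% called, against 5.93% of all genes). Fos, an AP-1 subunit, was at 60.2, 73.3, 58.4 and 60.5 CPM in WT and 135, 131, 145 and 193 CPM in LynKO, with a wide gap between the groups (1.26 ± 0.12, adjusted p = 1.12e-05). Fosl1, another AP-1 subunit, rose by 0.60 ± 0.16 (adjusted p = 0.0344). Dusp1, the phosphatase that switches off MAP kinases, was at 162, 223, 190.4 and 184 CPM in WT and 232, 271, 262 and 366 CPM in LynKO (0.58 ± 0.14, adjusted p = 0.0203), and Spry2, an inhibitor of growth factor signalling, rose by 0.63 ± 0.18 (0.0416). The calls of Fosl1, Dusp1 and Spry2 were, in this order, lost in 6 of 16 single omissions (adjusted p up to 0.117, without LynKO 4); lost without LynKO 4 (0.0651), WT 1 (0.0654), WT 3 (0.0526) or WT 4 (0.0568); and lost in 8 of 16 single omissions (adjusted p up to 0.12, without WT 3). Klf2, a factor that restrains macrophage activation, was at 29.1, 18.05, 21.5 and 30.9 CPM in WT and 14.1, 17.6, 12.4 and 12.2 CPM in LynKO (-0.82 ± 0.17, adjusted p = 0.00862). Klf6 fell by 0.39 ± 0.09 (0.0148), a call lost without WT 3 (0.0538). The list had 3 calls without WT 3 or WT 4.

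Other inflammatory families held few calls. Of 22 chemokines, Ccl22, a ligand of Ccr4, rose, at 6.00, 6.38, 6.16 and 6.94 CPM in WT and 9.78, 7.94, 14.6 and 16.3 CPM in LynKO (0.93 ± 0.20, adjusted p = 0.0107), and no other was called (3 rises and 2 falls with the mouse block). Of 57 interferon-stimulated genes, Gbp9, a GTPase with near-identical copies whose reads can be shared, rose by 1.08 ± 0.22 (adjusted p = 0.00688), and Irf1 fell by 0.37 ± 0.10 (0.0367), a call lost in 5 of 16 single omissions (adjusted p up to 0.117, without WT 3). The block gave 10 rises and 2 falls. Of 13 factors of cytokine mRNA decay (2 falls with the mouse block), Rc3h1 (Roquin-1) fell by 0.39 ± 0.09 (0.014), a call lost without WT 3 (0.0516). The shares called of the chemokine, interferon and mRNA decay lists were 4.55%, 3.51% and 7.69%, against 5.93% of all genes.

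Of 21 inflammasome and interleukin-1 genes, 4 fell (19.0%, against 2.74% of all genes) and none rose. Besides Il1a and Il1b these were Mefv, pyrin, at 68.95, 73.6, 78.4 and 70.1 CPM in WT and 44.7, 50.5, 58.3 and 46.6 CPM in LynKO (-0.54 ± 0.11, adjusted p = 0.00682), and the sensor Nlrp3, which fell by 0.36 ± 0.09 (adjusted p = 0.0296), a call lost in 5 of 16 single omissions (adjusted p up to 0.0964, without WT 3). Among 17 enzymes of prostaglandin, itaconate, nitric oxide and arginine metabolism, 2 fell and 1 rose, Odc1, whose values stand with the growth genes. The share called of these enzymes was 17.6%, against 5.93% of all genes. Arg2, mitochondrial arginase, was at 23.7, 29.6, 23.7 and 26.1 CPM in WT and 15.3, 18.2, 12.8 and 16.3 CPM in LynKO (-0.72 ± 0.13, adjusted p = 0.00305), and Acod1, which makes itaconate, was at 4477, 3912, 4559 and 4888 CPM in WT and 3214, 3311, 3845 and 2507 CPM in LynKO (-0.47 ± 0.12, adjusted p = 0.0249). The call of Acod1 was lost in 5 of 16 single omissions (adjusted p up to 0.0741, without WT 4). The inflammasome list had 1 call without LynKO 1 or WT 4 and 2 without WT 3.

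Genes of endoplasmic reticulum chaperones fell where they moved, and the promoters of Hspa5 (chr2:34771840-34772139, plus strand) and Hsp90b1 (chr10:86705395-86705694, minus strand) are shown because both hold a long motif of ER stress genes. Capitals mark the ER stress element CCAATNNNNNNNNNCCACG on either strand, in the same RefSeq windows as above, and each match also holds a CCAAT box.
Hspa5: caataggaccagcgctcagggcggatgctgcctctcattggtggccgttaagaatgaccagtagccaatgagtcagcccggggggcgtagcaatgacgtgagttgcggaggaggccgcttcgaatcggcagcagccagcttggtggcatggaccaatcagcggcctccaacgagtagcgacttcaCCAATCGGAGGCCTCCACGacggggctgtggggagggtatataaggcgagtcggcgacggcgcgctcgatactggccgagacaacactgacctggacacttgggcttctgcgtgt
Hsp90b1: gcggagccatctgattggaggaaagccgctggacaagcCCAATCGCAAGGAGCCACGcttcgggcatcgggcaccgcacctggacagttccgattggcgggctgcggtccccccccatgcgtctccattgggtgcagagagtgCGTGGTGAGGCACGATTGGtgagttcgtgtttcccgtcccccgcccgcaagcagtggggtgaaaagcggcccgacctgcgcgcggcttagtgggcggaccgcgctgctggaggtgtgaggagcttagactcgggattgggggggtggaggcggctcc
The element was in 16 of the 10020 windows of genes tested (0.16%), in 7 of 16 windows of chaperone and sensor genes (43.8%) and in 6 of the 10 that fell.

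Of 18 chaperones and sensors of the unfolded protein response, 10 fell and none rose, with a median of -0.34. Hspa5, the chaperone BiP, was at 965, 1020.0, 1099.8 and 1174 CPM in WT and 724, 825, 775 and 629 CPM in LynKO (-0.53 ± 0.10, adjusted p = 0.00433). Hsp90b1 was at 626, 613, 670.0 and 687 CPM in WT and 478, 519, 469.8 and 393 CPM in LynKO (-0.48 ± 0.08, adjusted p = 0.00282). LynKO 4 was lowest for both, and no LynKO library reached the WT range. Pdia6, a disulphide isomerase, fell from 225 ± 2.89 to 163 ± 10.2 CPM (-0.47 ± 0.09, adjusted p = 0.0042), and Edem1, which sends misfolded proteins to degradation, from 395 ± 34.3 to 291 ± 30.4 CPM (-0.44 ± 0.09, adjusted p = 0.00552). Xbp1, a transcription factor of the response, named after its values were seen, fell by 0.50 ± 0.10 (adjusted p = 0.00881); spliced and unspliced forms are not separated in these counts.

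The 16 genes of the ATF4 axis, which answers amino acid shortage, did not move together, with 3 rises, 2 falls and a median of 0.29. Slc7a5, a transporter of large neutral amino acids, was at 3.00, 4.91, 7.72 and 5.93 CPM in WT and 10.2, 8.52, 15.8 and 22.1 CPM in LynKO, lowest in LynKO 2 within its group and still above WT 3 (1.40 ± 0.26, adjusted p = 0.0042). Shmt2 and Psat1, of serine and glycine metabolism, rose by 0.56 ± 0.14 (adjusted p = 0.0255) and 0.56 ± 0.16 (0.0444). The call of Shmt2 was lost without LynKO 4 (0.0869), WT 1 (0.0585) or WT 3 (0.0766) and that of Psat1 was lost in 13 of 16 single omissions (adjusted p up to 0.144, without LynKO 4). Slc7a11, the cystine transporter, named after its values were seen, fell by 1.06 ± 0.26 (0.0223), a call lost in 5 of 16 single omissions (adjusted p up to 0.0852, without WT 3). Both branches together had 15 calls among 34 genes, and 9 (1 rise, 8 falls) without the libraries numbered 4 or without LynKO 4.

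NRF2 targets and iron genes fell where they moved: 8 of 34, with none rising and a median of -0.23 (14 falls with the mouse block). The share that fell was 23.5%, against 2.74% of all genes. Mgst1, a membrane glutathione transferase, was at 132, 127, 122 and 121 CPM in WT and 84.7, 79.9, 72.5 and 68.3 CPM in LynKO (-0.71 ± 0.09, adjusted p = 0.000151). Cat, catalase, was at 381, 311, 346 and 324 CPM in WT and 245, 228, 246 and 209.5 CPM in LynKO (-0.55 ± 0.09, adjusted p = 0.0014), and Gstm1, another glutathione transferase, fell by 0.51 ± 0.08 (adjusted p = 0.0014). No LynKO library of Mgst1 or Cat reached the WT range. With Slc40a1, at 24.3, 20.9, 21.2 and 24.6 CPM in WT and 10.7, 7.87, 8.35 and 6.94 CPM in LynKO, these 4 were called in all 16 single omissions. The list's count was 4 without LynKO 2, WT 3 or WT 4 and 5 without LynKO 1.

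Lysosomal genes gave 6 falls and 1 rise among 41 (17 falls and 2 rises with the mouse block). The share called was 17.1%, against 5.93% of all genes, and 46.3% against 12.5% with the block. Psap, the precursor of the saposins that help break down sphingolipids, was at 12381, 10145, 8815 and 9178 CPM in WT and 7071, 6663, 7202 and 5824 CPM in LynKO (-0.60 ± 0.10, adjusted p = 0.00163). Lamp1, a membrane glycoprotein of lysosomes, was at 1983, 1742, 1799 and 1868 CPM in WT and 1429, 1588, 1453 and 1322 CPM in LynKO (-0.35 ± 0.07, adjusted p = 0.00433). The proteases split: Ctss, cathepsin S, fell by 0.31 ± 0.07 (adjusted p = 0.0108) and Ctsa by 0.26 ± 0.07 (0.0274), a call lost in 6 of 16 single omissions (adjusted p up to 0.0879, without WT 1). Ctsl, cathepsin L, was at 1044, 1129, 1004 and 1072 CPM in WT and 1394, 1559.9, 1249.5 and 1499 CPM in LynKO, with every LynKO library above every WT library (0.42 ± 0.09, adjusted p = 0.00961). The list had 4 calls without LynKO 4, WT 1 or WT 2.

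Macrophage identity genes changed in both directions, with 6 rises and 9 falls among 45 (7 and 17 with the mouse block). The share called was 33.3%, against 5.93% of all genes. Lyz2, lysozyme, was at 25893, 24295, 25592 and 28071 CPM in WT and 16346, 17599, 15313 and 13042 CPM in LynKO (-0.74 ± 0.09, adjusted p = 0.000139). As one of the most abundant transcripts it makes up most of the summed macrophage markers above, and reads can be shared with its copy Lyz1, which also fell (-0.68 ± 0.15, adjusted p = 0.0125). Gas6, the ligand of the phagocytic receptors Axl and Mertk, was at 212, 195, 152 and 164 CPM in WT and 109, 107, 93.9 and 96.02 CPM in LynKO (-0.84 ± 0.10, adjusted p = 8.7e-05), and Tfec, a macrophage member of the MiT factors, fell by 0.48 ± 0.08 (adjusted p = 0.00215). Gpnmb and Stab1, a glycoprotein and a scavenger receptor of mature macrophages, named after their values were seen, fell by 0.45 ± 0.08 and 0.58 ± 0.11 (0.00291 and 0.00488).

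In the other direction, Pparg, the nuclear receptor of lipid-handling macrophages, was at 12.3, 14.3, 13.7 and 13.9 CPM in WT and 23.6, 24.8, 22.7 and 24.4 CPM in LynKO, and the ranges of the groups lay far apart (0.82 ± 0.13, adjusted p = 0.0014). Cd36, a scavenger receptor that Pparg controls, was at 306, 312, 256 and 199 CPM in WT and 435, 379, 416 and 569 CPM in LynKO (0.74 ± 0.17, adjusted p = 0.0153), and its call was lost without WT 4 (0.0537). Nr1h3, the oxysterol receptor LXR alpha, rose by 0.52 ± 0.14 (adjusted p = 0.0392), a call lost in 5 of 16 single omissions (adjusted p up to 0.126, without LynKO 4). Of the 25 LXR targets and lipid genes, 3 rose and 3 fell (7 falls with the mouse block). Lpl, lipoprotein lipase, was at 820.0, 1158, 908 and 862 CPM in WT and 2003, 1920.0, 2097 and 2875 CPM in LynKO (1.25 ± 0.17, adjusted p = 0.000371). Apoc1 was at 1.47, 1.10, 1.06 and 1.08 CPM in WT and 0.637, 0.390, 0.0619 and 0.250 CPM in LynKO, under 2 CPM in all 8 libraries (-1.79 ± 0.43, adjusted p = 0.02), and its call was lost without LynKO 4 (0.0555) or WT 1 (0.0568). Soat1 and Srebf1 fell by 0.36 ± 0.09 and 0.24 ± 0.07 (0.0223 and 0.0361), calls that were, in this order, lost without LynKO 1 (0.0557), LynKO 4 (0.0645) or WT 1 (0.0714); and lost in 7 of 16 single omissions (adjusted p up to 0.0983, without WT 4). The list had 2 calls without WT 1 and 3 without WT 4.

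Of 34 integrins and matrix proteases, 4 rose and 2 fell (6 and 6 with the mouse block). The share called was 17.6%, against 5.93% of all genes, and 35.3% against 12.5% with the block. Spp1, osteopontin, was at 2318, 2326, 1768 and 2051 CPM in WT and 3708, 3523, 3171 and 4339 CPM in LynKO (0.80 ± 0.14, adjusted p = 0.00234), and Adam8, a sheddase of leukocytes, was at 1616, 1587, 1453 and 1354 CPM in WT and 1849, 1924, 2087 and 1873 CPM in LynKO (0.36 ± 0.07, adjusted p = 0.00744). Itga9, an integrin that binds osteopontin, rose by 1.21 ± 0.25 (adjusted p = 0.00881) and Timp1, an inhibitor of metalloproteases, by 1.34 ± 0.30 (0.014). Mmp12, macrophage elastase, fell with Mmp8 and was at 108, 74.3, 117 and 117 CPM in WT and 49.1, 46.4, 57.3 and 36.7 CPM in LynKO (-1.13 ± 0.17, adjusted p = 0.000798). In each of these 6 genes the groups did not overlap.

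C-type lectins were mostly lower where they moved, while Fc receptors and adaptors held few calls. Of 38 C-type lectins, Fc receptors and adaptors, 6 fell and 1 rose (12 and 2 with the mouse block). The 14 C-type lectins tested gave 5 falls and 1 rise (42.9% called). The 24 Fc receptors and adaptors gave 1 fall (4.17%), against 5.93% of all genes called. Clec4a3 fell by 0.50 ± 0.11 (adjusted p = 0.0123), Clec5a by 0.43 ± 0.12 (0.0448) and Cd302 by 0.33 ± 0.09 (0.0342). The riser was Clec4b1, at 0.795, 2.15, 1.70 and 1.52 CPM in WT and 4.34, 5.07, 2.66 and 3.13 CPM in LynKO (1.30 ± 0.30, adjusted p = 0.0144). Clec4n, Clec4a3 and Clec4b1 are members of 1 cluster of related lectins. The call of Clec5a was lost in 11 of 16 single omissions (adjusted p up to 0.129, without WT 3) and that of Cd302 was lost in 5 of 16 single omissions (adjusted p up to 0.11, without LynKO 1). The list had 3 calls without LynKO 1, WT 3 or WT 4 and 4 without LynKO 3 or LynBKO 2.

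Of 23 inhibitory receptors, the class through which Lyn is known to dampen signalling, 4 fell and 1 rose. The share called was 21.7%, against 5.93% of all genes. Cd33, a sialic acid-binding lectin, was at 74.2, 73.5, 108 and 105 CPM in WT and 52.7, 49.8, 46.2 and 32.8 CPM in LynKO (-0.99 ± 0.17, adjusted p = 0.00215). Sirpa, the receptor for CD47, was at 1857, 1839, 1720.0 and 1826 CPM in WT and 1501, 1506, 1546 and 1204 CPM in LynKO (-0.33 ± 0.08, adjusted p = 0.0159). Cd22 fell by 0.89 ± 0.23 (adjusted p = 0.0267) and Pilra by 0.94 ± 0.24 (0.0249), calls that were, in this order, lost in 5 of 16 single omissions (adjusted p up to 0.0703, without LynKO 1); and lost without LynKO 1 (0.0517), LynKO 4 (0.0679), WT 3 (0.0551) or WT 4 (0.0818). Cd72 rose, at 370.1, 395, 256 and 363 CPM in WT and 578, 512, 621 and 641 CPM in LynKO, with each LynKO library above each WT library (0.76 ± 0.12, adjusted p = 0.0015). Without LynKO 1 or WT 3 the list had 3 calls.

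Among 38 chemokine, complement and lipid mediator receptors, 6 fell and 1 rose (18.4% called, against 5.93% of all genes). Fpr1 was at 42.3, 35.5, 50.7 and 61.1 CPM in WT and 15.1, 18.1, 25.6 and 19.2 CPM in LynKO. P2ry13, a receptor for ADP, was at 2.69, 3.93, 4.25 and 2.60 CPM in WT and 1.10, 1.30, 0.990 and 1.00 CPM in LynKO (-1.61 ± 0.27, adjusted p = 0.00213), Ccrl2, a non-signalling receptor for chemerin, at 171, 185, 130.2 and 136 CPM in WT and 97.2, 85.5, 79.7 and 60.7 CPM in LynKO (-0.95 ± 0.14, adjusted p = 0.000634), and P2rx4, an ATP-gated channel, fell by 0.31 ± 0.07 (adjusted p = 0.0118). No LynKO library of Fpr1, P2ry13 or Ccrl2 reached the WT range. The list had 4 calls without WT 4, and 3 rises and 9 falls with the mouse block. Of 26 cytokine receptors, Il13ra1, Ifngr1 and Il10ra fell by 0.52 ± 0.11, 0.29 ± 0.07 and 0.25 ± 0.06 (0.00838, 0.0222 and 0.0267). The calls of Ifngr1 and Il10ra were, in this order, lost without LynKO 4 (0.062), WT 1 (0.0591) or WT 3 (0.0561); and lost without LynKO 2 (0.058), LynKO 4 (0.0622), WT 3 (0.0781) or WT 4 (0.0746). The share called of the cytokine receptors was 11.5%, against 5.93% of all genes. This list had 1 rise and 5 falls with the mouse block (23.1%, against 12.5% of all genes). Of 26 genes of the M-CSF, GM-CSF, PI3K and FoxO axis, Csf3r, the G-CSF receptor, fell, at 137, 146, 134 and 141 CPM in WT and 93.4, 107, 105 and 111 CPM in LynKO (-0.42 ± 0.07, adjusted p = 0.00234), and no other was called. This 1 call was 3.85% of the list, against 5.93% of all genes called. With the mouse block 7 fell, 26.9% against 6.8% of all genes.

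Of 28 BCL-2 and death genes, Ripk3, the kinase of necroptosis, rose, at 10.1, 10.9, 11.8 and 9.83 CPM in WT and 19.04, 16.2, 15.96 and 18.00 CPM in LynKO (0.70 ± 0.12, adjusted p = 0.00185). Bcl2a1b, one of a set of near-identical copies, Cflar and Fas fell by 0.67 ± 0.18, 0.31 ± 0.08 and 0.30 ± 0.09 (adjusted p = 0.0341, 0.0362 and 0.048). Their calls were, in this order, lost in 5 of 16 single omissions (adjusted p up to 0.123, without WT 4); lost in 5 of 16 single omissions (adjusted p up to 0.111, without WT 3); and lost in 11 of 16 single omissions (adjusted p up to 0.136, without WT 4). Without LynKO 1, WT 3 or WT 4 the list had 1 call. With all libraries its share called was 14.3%, against 5.93% of all genes. Of 15 complement genes (2 falls with the mouse block), Cfp, properdin, fell, at 198, 215, 157 and 214 CPM in WT and 137, 130.3, 131 and 98.4 CPM in LynKO (-0.66 ± 0.12, adjusted p = 0.00355). This 1 call was 6.67% of the complement list, near the 5.93% of all genes called.

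Antigen presentation genes need to be read with 1 control mouse. Cd74, the invariant chain of MHC class II, was at 1767, 115, 98.3 and 177 CPM in WT and 64.8, 79.1, 89.6 and 61.8 CPM in LynKO. The fall of 2.87 ± 0.68 (adjusted p = 0.0173) rested on WT 1, the highest library, and the call was lost without LynKO 1 (0.0514) or WT 1 (0.0885). DESeq2 gave no adjusted p for this gene. H2-Q6, a class I gene with near-identical copies, was at 6.36, 51.6, 35.5 and 40.8 CPM in WT and 79.4, 92.5, 96.1 and 134 CPM in LynKO, WT 1 being the lowest (1.58 ± 0.36, adjusted p = 0.0138), and it was called in all 16 single omissions. Of 21 class II and costimulation genes, Icosl and Cd86 fell too. The share called of this list was 14.3%, against 5.93% of all genes. With the mouse block it was also 14.3%, near the 12.5% of all genes. Icosl was at 635, 646, 605 and 551 CPM in WT and 458, 468, 445 and 460.0 CPM in LynKO (-0.41 ± 0.07, adjusted p = 0.00218), and Cd86 fell by 0.42 ± 0.11 (adjusted p = 0.0302), a call lost in 5 of 16 single omissions (adjusted p up to 0.0866, without LynKO 4). None of 14 genes of the class I and peptide loading list was called. Its members with the smallest p were B2m, at 1663, 2330.1, 2213 and 2395 CPM in WT and 2675, 2527, 2799 and 2915 CPM in LynKO (0.34 ± 0.11, adjusted p = 0.0661), and Psmb9 (0.35 ± 0.12, adjusted p = 0.107), both higher in every LynKO library than in any WT library. With the mouse block 3 were called higher, B2m (adjusted p = 0.00896) and Psmb9 (0.0141) among them.

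The cholesterol and glycolysis lists gave no calls. None of 23 cholesterol genes was called, and the smallest p were those of Stard4 (-0.40 ± 0.17, adjusted p = 0.178) and Hmgcs1 (-0.38 ± 0.17, adjusted p = 0.216). None of 37 glycolysis and HIF-1 genes was called, and there the smallest p were those of Adm (-0.88 ± 0.29, adjusted p = 0.0796) and Epas1 (-0.75 ± 0.25, adjusted p = 0.0847). Adm was at 6.00, 9.39, 12.7 and 9.68 CPM in WT and 3.42, 3.19, 4.52 and 9.44 CPM in LynKO, with LynKO 4 inside the WT range. With the mouse block 3 genes of this list fell, Adm and Epas1 among them (adjusted p = 0.0289 and 0.0282). The chart of shares by list shows all 31 lists against the share of all genes.

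**Figure D4:**
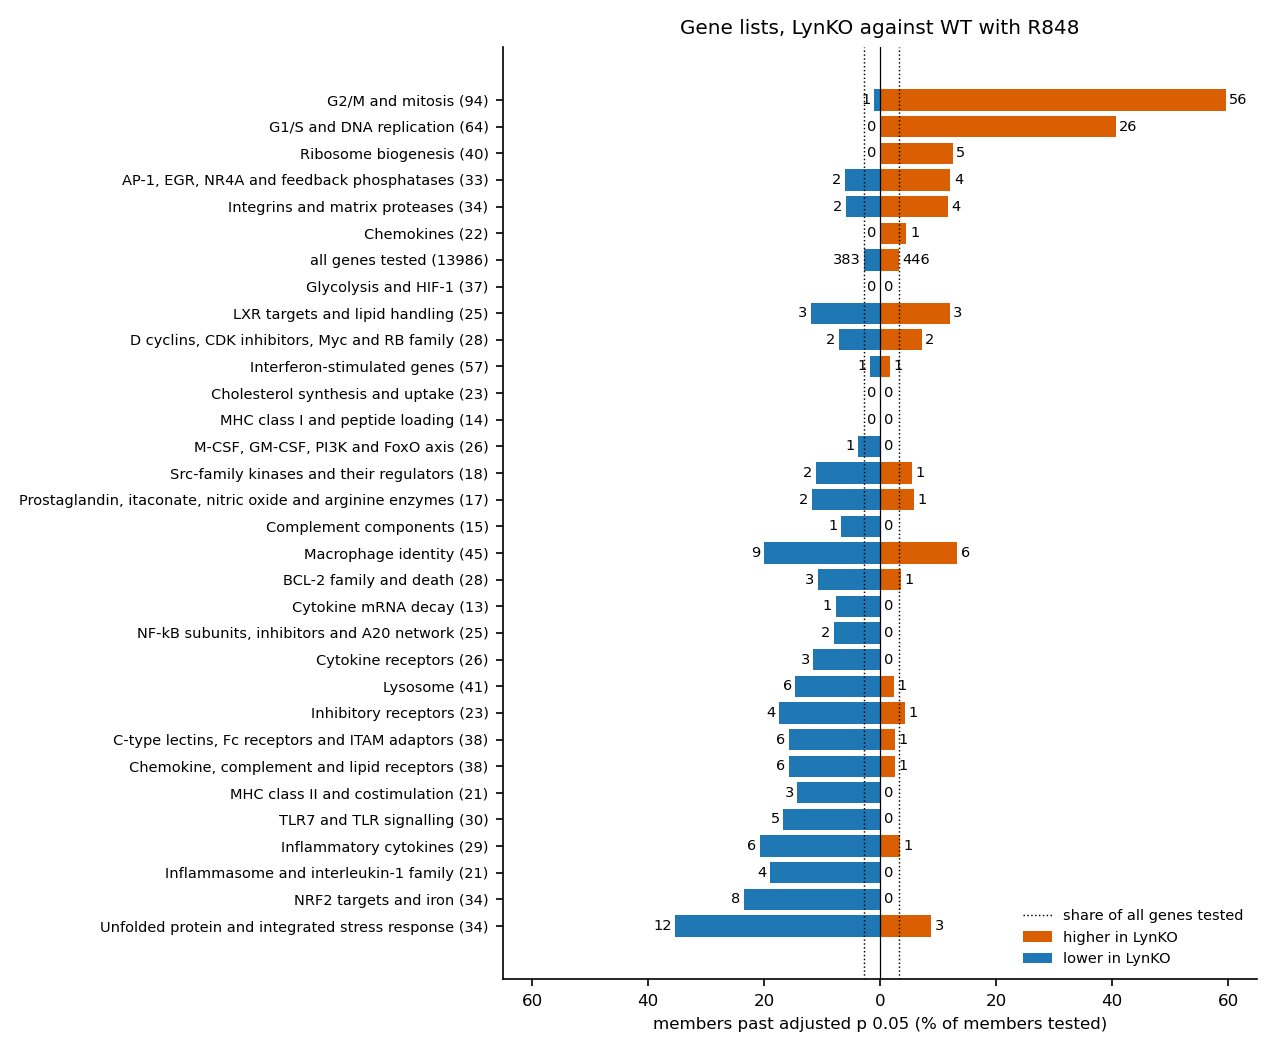
Share of tested members past adjusted p 0.05, in percent, for each of 31 gene lists and all genes tested (number tested in parentheses); bars to the right rose and bars to the left fell in LynKO, with counts at their ends, and dotted lines mark the shares of all genes (3.19% and 2.74%). The G2/M list (56 and 1) and the G1/S list (26 and 0) reach farthest right.

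Many of these differences were present without ligand and with LPS. Without ligand 1387 genes (9.92%) differed between LynKO and WT, 5.43% higher and 4.48% lower. With LPS 1187 (8.49%) did, 4.43% higher and 4.06% lower. Each treatment was fitted within its own 16 libraries. Of the 829 genes called with R848, 451 were called in the same direction without ligand (54.4% of the R848 calls, 32.5% of those without ligand) and 2 in the opposite one. With LPS 509 were shared (61.4% of the R848 calls, 42.9% of the LPS calls) and none was opposite. The no-ligand libraries LynKO 4 and LynBKO 4 held transcripts of both sexes. Without those libraries 967 genes were called without ligand and 359 were shared with R848 (43.3% and 37.1%). The no-ligand LynBKO 2 and 3 libraries held the sex transcripts of their own labels, opposite to those of the same numbers with LPS and R848, and without them 1207 genes were called without ligand.

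The cell cycle lists were higher in LynKO in all 3 settings. Of the 94 G2/M genes, 78 rose without ligand (median 1.01) and 51 rose and 2 fell with LPS. Of the 64 G1/S genes, 37 rose without ligand and 30 with LPS. Top2a changed by 1.48 ± 0.17 without ligand, by 1.16 ± 0.19 with LPS and by 1.11 ± 0.16 with R848, and Mcm5 by 1.23 ± 0.18, 1.39 ± 0.22 and 1.09 ± 0.19. Col4a6 changed by 2.46 ± 0.32, 3.03 ± 0.41 and 3.14 ± 0.36, and Folr2 by 2.19 ± 0.30, 2.20 ± 0.27 and 2.29 ± 0.32. Slc40a1 changed by -1.57 ± 0.14, -1.66 ± 0.18 and -1.43 ± 0.14. The difference between R848 and no ligand was not called for any of these 5 genes (adjusted p = 0.69, 0.92, 0.718, 0.956 and 0.845 in this order). Ribosome biogenesis genes had no call without ligand and a median of 0.01 there, against 5 of 40 called and a median of 0.28 with R848. Whether this list as a whole differed between the settings was not tested.

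The test of the difference itself, over all 48 libraries, called 27 genes (0.193%) whose LynKO effect with R848 differed from that without ligand, 12 upward (0.0858%) and 15 downward (0.107%). No gene was called for R848 against LPS, where 447 had an unadjusted p under 0.05 (1262 for R848 against no ligand); DESeq2 also called 0 for R848 against LPS and 81 for R848 against no ligand. The 27 calls became 17 without the no-ligand LynKO 4 and LynBKO 4 libraries. The count was 6 without LynKO 4, 7 without WT 1, 12 without LynKO 1, 14 without LynKO 2 and 3 in a fit of only the 16 WT and LynKO libraries, and 173 with the mouse as a block. Without the no-ligand LynBKO 2 and 3 libraries it was 28, and 210 with the block.

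For some genes the LynKO effect was more negative without ligand than with R848. Socs3, the feedback inhibitor of cytokine receptors, was at 11.1 ± 2.99 CPM in WT and 4.83 ± 0.566 in LynKO without ligand, and at 1814 ± 110.1 and 1728 ± 164 with R848, a difference of 1.13 ± 0.17 (adjusted p = 0.000577). R848 induced it by 7.35 ± 0.15 in WT and 8.48 ± 0.16 in LynKO. Acod1 went from a LynKO effect of -1.80 ± 0.22 without ligand to -0.47 ± 0.12 with R848 (difference 1.35 ± 0.24, adjusted p = 0.00489). Mmp14, a membrane metalloprotease, went from -1.62 ± 0.16 to -0.39 ± 0.14 (0.00489), Fas from -1.04 ± 0.14 to -0.30 ± 0.09 (0.0158), Tlr2 from -0.78 ± 0.09 to -0.24 ± 0.07 (0.0118) and Rara, a retinoic acid receptor, from -0.45 ± 0.07 to 0.21 ± 0.12 (0.0118).

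For others the LynKO effect was more negative with R848 than without ligand. Frmd6, a scaffold of the Hippo pathway, was at 73.8, 66.5, 54.6 and 53.2 CPM in WT and 34.2, 33.8, 29.8 and 21.7 CPM in LynKO with R848 (-1.06 ± 0.17, adjusted p = 0.0018) and at 5.27 ± 0.771 CPM in WT and 7.68 ± 0.556 CPM in LynKO without ligand, a difference of -1.60 ± 0.25 (adjusted p = 0.000577). Tmcc3 changed by 0.69 ± 0.09 without ligand and -0.61 ± 0.15 with R848 (0.000601), each called and opposite in sign, the call with R848 being lost without LynKO 3 (0.0558), WT 1 (0.062), WT 2 (0.0732) or WT 3 (0.0504). Tsc22d1, a transcription factor induced by TGF-beta, went from -0.06 ± 0.08 to -0.89 ± 0.14 (0.0138), with 74.3, 66.5, 100.1 and 109 CPM in WT and 46.4, 41.4, 55.1 and 46.1 CPM in LynKO. Clic4, Rap2a and Gmeb2 had effects of 0.61 ± 0.11, 0.31 ± 0.07 and 0.24 ± 0.08 without ligand and -0.17 ± 0.10, -0.36 ± 0.12 and -0.36 ± 0.10 with R848 (0.0151, 0.0108 and 0.0118). The effect of Rap2a with R848, and that of Mmp14, passed the test with the mouse block (adjusted p = 0.0112 and 0.0202). Mki67 rose in LynKO without ligand (1.02 ± 0.15, adjusted p = 0.000194) and had the value of -0.27 ± 0.24 with R848, a difference of -1.28 ± 0.28 (0.0299), unlike Top2a (-0.35 ± 0.27, 0.69).

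**Figure D5:**
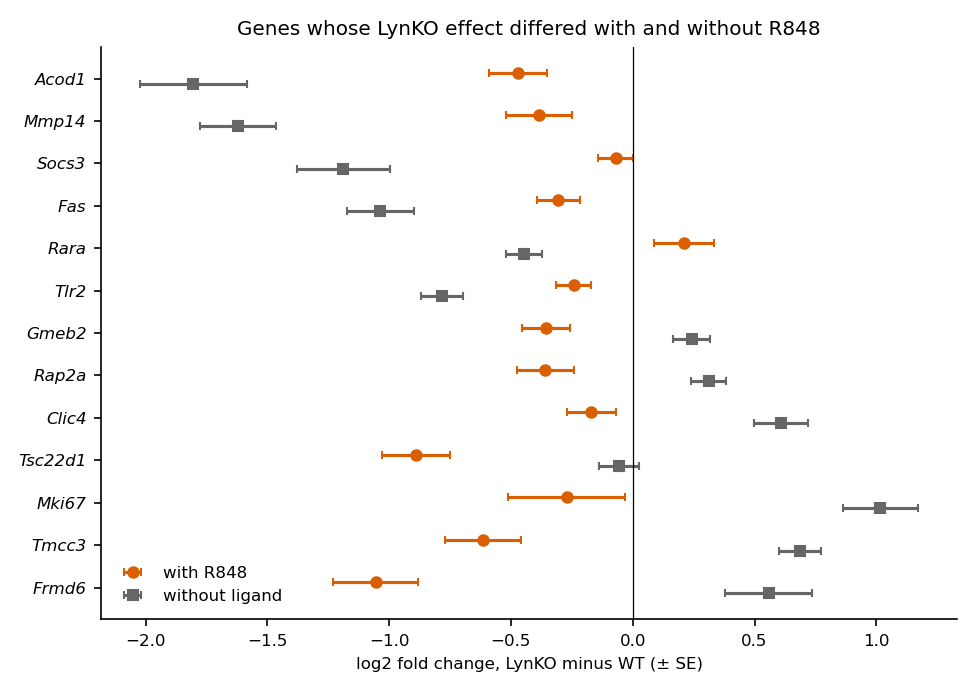
Log2 fold change of LynKO minus WT (x, ± SE) with R848 (orange circles) and without ligand (grey squares) for 13 genes whose difference between these was called. In the upper rows the grey squares lie left of the orange circles, and in the lower rows right of them.

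The isoform knockouts are given beside these values; all 3 comparisons with R848 share the 4 WT libraries. At the same threshold LynAKO differed from WT in 1 gene (0.00715%) and LynBKO in 0, with 448 and 636 genes at an unadjusted p under 0.05, 5 and 16 calls by DESeq2, and 4 and 17 with the mouse block. The change of Lyn was -1.84 ± 0.09 in LynKO, -0.55 ± 0.09 in LynBKO and -0.61 ± 0.09 in LynAKO. In the same order, the change of Top2a was 1.11 ± 0.16, 0.50 ± 0.16 and 0.05 ± 0.16, and that of Mcm5 1.09 ± 0.19, 0.12 ± 0.20 and 0.06 ± 0.20. For Il12b the values were -1.22 ± 0.22, -0.37 ± 0.22 and -0.49 ± 0.22, and for Fos 1.26 ± 0.12, 0.45 ± 0.12 and 0.51 ± 0.12. For Col4a6 they were 3.14 ± 0.36, 1.11 ± 0.38 and 1.05 ± 0.38, and for Slc40a1 -1.43 ± 0.14, -0.38 ± 0.13 and -0.15 ± 0.13. The 1 call in LynAKO was Lyn (adjusted p = 0.0133). The knockouts were not tested against each other.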

How the data were processed

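The authors deposited a table of raw read counts per gene for 48 libraries of polyadenylated RNA. The submitters' processing notes name STAR 2.5.2b, Trimmomatic 0.36, Subread 1.5.2 with featureCounts, DESeq2 and the build GRCm38. The annotation release and strand setting, not given in the sources used here, leave it unknown whether reads of overlapping antisense genes were separated. A deposited table of transformed values was not used. Symbols and coordinates came from the GENCODE M21 annotation given with the data, which matched 48970 of 49315 identifiers, and promoter sequences from RefSeq (GRCm38.p6), where 2017 tested genes had more than 1 window and any window with a match counted.

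Groups came from the labels. Across the 12 groups, 13986 genes passed filterByExpr with at least 10 counts in enough libraries and 15 in total. edgeR 4.0.16 (R 4.3.3) fitted quasi-likelihood models with TMM factors, without a block: the 16 libraries of a treatment for genotype differences, and all 48 for differences between treatments. P-values were adjusted by Benjamini-Hochberg over all genes tested, at 0.05. CPM used TMM factors over all 48 libraries. Marker sums were scaled by library totals alone. The tests were first tried on simulated counts with known changes.

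Within a treatment each library is a separate mouse per the labels. Equal numbers in the 3 treatments were taken as the same mouse. Deviations from the group means of same-numbered WT and LynKO libraries with R848 correlated at 0.409, 0.32, 0.431 and 0.496, so mouse numbers were taken to pair the samples. WT 2 with LynKO 1 gave 0.393 and WT 1 with LynKO 2 gave 0.316, and the remaining pairs of unequal numbers gave -0.487 to 0.0981. Between numbers 1 and 2 the correlations thus do not single out the equal number. The block joins different mice of WT and LynKO, and with R848 it also takes up the labelled sex, male in numbers 1 and 2. For differences between treatments the block was instead each mouse within its genotype. The pairing comes from these data and from the shared sex of equal numbers, and values with the number as a block are given where they change the call of a named gene or move a list's count by over 1.5 times.

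Named genes were 16 chosen genes, the 12 largest non-overlapping changes each way with a mean of at least 5 CPM, up to 4 members each way per list by smallest p (2 where none passed), and up to 6 each way for the differences between treatments. A few genes that these rules name are not reported here. Members and the 31 lists (998 genes, 3 unmatched) were chosen with earlier results of these data known. Alternatives were DESeq2 1.42.0, RLE size factors, no filter, sex as a covariate, other sets of libraries, the block and single omissions. Leaving out libraries numbered 4, the no-ligand LynKO 4 and LynBKO 4 libraries, or the no-ligand LynBKO 2 and 3 libraries, was chosen after seeing the data. Figures used Python 3.11.15 and matplotlib 3.10.9.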

Additional observations from a re-analysis of the deposited data

Results flagged for a closer look

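Among 306 groups of 4 libraries (153 genes in WT and in LynKO with R848), 20 held a library set apart from the other 3, where chance gives about 1 in 20. Of these 20, 10 were LynKO 4. It was the highest LynKO library for Il10 (139 CPM), Il12b (79.7), Mcm6 (76.1), Socs3 (1973) and Timp1 (6.88), and the lowest for Cfp (98.4), Edem1 (246), Ly6c2 (1.75), Pilra (14.2) and Sirpa (1204). LynKO 3 was the highest for Il1a (323).

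Among the controls, WT 1 was the highest for Cd74 (1767 CPM) and Apoc1 (1.47) and the lowest for Dkc1 (6.61). WT 2 was the highest for Fos (73.3) and Odc1 (410.5) and the lowest for Stard4 (32.2). WT 3 was the highest for Atrnl1 (35.3) and Cflar (1109), and WT 4 the lowest for Ifngr1 (266).

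The LynKO effect on 13 named genes differed between R848 and no ligand by edgeR's test of the difference (adjusted p under the threshold). The difference, R848 minus no ligand on the log2 scale, was 1.35 for Acod1, 1.25 for Mmp14, 1.13 for Socs3, 0.74 for Fas, 0.67 for Rara and 0.55 for Tlr2. It was -1.60 for Frmd6, -1.29 for Tmcc3, -1.28 for Mki67, -0.82 for Tsc22d1, -0.76 for Clic4, -0.66 for Rap2a and -0.58 for Gmeb2. All 13 were also called without the no-ligand LynKO 4 and LynBKO 4 libraries. Over all genes, the count was 3 with only the 16 WT and LynKO libraries, 6 without LynKO 4, 7 without WT 1 and 12 without LynKO 1. Not all 13 can therefore have been called in those fits.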

How the results depend on the processing

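The 829 genes called with R848 became 1250 with DESeq2, 1753 with the replicate block, 1406 with all 48 libraries in 1 model, 465 with only the 8 WT and LynKO libraries and 513 without the 4 libraries numbered 4. RLE size factors gave 851, sex as a covariate 1023 and no filter on low counts 1195. Leaving out 1 library at a time gave 464 to 873 calls. With the block all 829 genes were also called, in the same direction, and among the named genes it changed no other call than those given with it in the report. The change of Lyn was -1.91 to -1.80 over the single omissions. Of 135 named genes that were called, 88 were called in all 16 single omissions, 98 in each of the 7 other planned settings, and 0 reversed. The change of Fgr was -0.0069 to 0.15 over the single omissions, its sign turning without LynKO 4 (-0.0042) and WT 1 (-0.0069).

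The 27 genes whose LynKO effect differed between R848 and no ligand became 81 with DESeq2 and 148 without a filter on low counts. With each mouse as a block there were 173 (210 with it and without the no-ligand LynBKO 2 and 3 libraries). The count was 3 with only the 16 WT and LynKO libraries, 17 without the no-ligand LynKO 4 and LynBKO 4 libraries, and 6 to 26 over the single omissions. For R848 against LPS the 0 calls became 2 without the filter and stayed at 0 in the other settings and single omissions run. LynAKO went from 1 call to 5 with DESeq2 and 4 with the mouse number as a block, and LynBKO from 0 to 16 and 17. The cause of these shifts was not tested. Depth limits the genes of a few CPM, such as Apoc1, Il23a and Tnfsf13b.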

Other observations

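Below the level of the named genes, 1 laminin gene followed the collagen IV genes. Lama5, a chain of basement membrane laminin, had a mean of -0.01 log2 CPM over the 8 libraries and was 3.63 ± 0.40 higher in LynKO on the log2 scale (edgeR adjusted p = 5.03e-05). It was chosen after its values were seen.

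WT 1 stood apart from the other 15 mice in genes of antigen presentation. In all 3 treatments its libraries lay more than 2-fold beyond all 15 others for 8 genes, 1 high (Cd74) and 7 low (Mr1, Eps8l1, H2-DMb1, H2-Aa, H2-Q5, H2-Q6 and H2-Q7), 5 of them on chromosome 17. Of the 16 mice, 12 had 0 such genes. Without ligand Cd74 was at 2957 CPM in WT 1 and 39.7 to 114 CPM in the other 15, and with LPS at 3784 against 70.5 to 232 CPM. With R848 H2-DMb1 was at 0.367 CPM in WT 1 and 14.7 to 27.8 CPM in the others, and H2-Q7 at 6.85 against 33.0 to 122 CPM.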
